A study of Arabidopsis thaliana with 24 samples.

Results

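Chloroplast-encoded genes were followed through whole Arabidopsis thaliana seedlings with and without an earlier spell of shade. They were taken as all rows of the expression table whose identifier starts with ATCG and that reached 1 TPM (a unit that divides reads by gene length and scales each library to the same total) in 2 or more of 24 libraries. Of 133 chloroplast rows, 72 met this rule, among 33026 genes in the table. The 72 rows hold 64 distinct patterns, because 8 pairs of copies in the inverted repeat of the chloroplast genome carry identical values (rrn16S, rrn23S, rrn5S, rps12, rps7, ycf15, rpl2 and rpl23). The seedlings were Col-0 wild type (WT) or lines labelled pif7-1 and ref6-1, and were 4 days old when treatment began. Naive seedlings spent 8 h in white light and primed seedlings 8 h in shade. After 40 h of recovery under white light, some seedlings were kept there and others were given a final 1 h of shade, at R/FR near 0.5. This gave 12 groups, each with 2 libraries. PIF7 encodes a bHLH transcription factor of the shade response, and REF6 encodes a demethylase that removes a repressive histone mark. The labels do not say whether replicates came from separate cultures, so the p-values reflect how far these particular samples scatter, which may be technical variation alone.

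The chloroplast keeps a small genome of its own, which encodes core subunits of both photosystems, of the cytochrome b6f complex, of the ATP synthase and of the NDH complex, the large subunit of Rubisco, and parts of its own ribosome and RNA polymerase. Most photosynthesis genes are read by a polymerase whose core subunits (rpo genes) are made in the chloroplast and whose sigma factors are made in the nucleus, while a phage-type polymerase from the nucleus reads other genes, rpoB among them. Chloroplast transcripts are made as long precursors over several genes, many of them without the long poly(A) tails of nuclear messengers, so the way a library is made bears on how much of them is captured. The labels name standard Illumina libraries from total RNA and do not say how rRNA was treated.

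The sum of the 72 genes ran from 1705 TPM in replicate 1 of naive ref6-1 in white light to 15193 TPM in replicate 1 of naive shaded WT, and the rRNA genes made up 71.5% to 91.4% of it. Replicates of a group often differed more than groups did. Naive shaded WT held 15193 and 3871 TPM, primed WT in white light 9915 and 2727 TPM, and primed shaded pif7-1 5998 and 3103 TPM, always with replicate 1 the higher. By the sum of the 72 genes these 3 replicate 1 libraries were the highest of all 24, and the other 21 lay between 1705 and 4551 TPM. Of the 72 genes, 51 had their highest value in one of the 3, 38 in naive shaded WT alone. The order depends on the rule. Over all chloroplast rows naive shaded WT held 15264 and 7259 TPM, and primed shaded pif7-1 6000 and 3105 TPM. Both rrn4.5S rows, outside the rule, were listed at 1694 TPM in replicate 2 of naive shaded WT. Summed transcripts of mitochondria-encoded genes were 559 and 321 TPM in naive shaded WT and 407 and 158 TPM in naive shaded ref6-1, against 59 to 186 TPM in the other 20 libraries. In whole seedlings, fewer chloroplasts or green cells and less RNA in each cannot be told apart. PIF7 stayed at or below 3.03 TPM in pif7-1 against 28.4 to 76.6 TPM in WT. REF6 overlapped between genotypes and does not check the ref6-1 label. ATXR7, a histone methyltransferase gene, was at most 0.02 TPM in the 4 naive ref6-1 libraries and 7.2 to 8.6 TPM in the 4 primed ones, so the naive and primed ref6-1 libraries stand apart in a gene that the labels do not name. The naive mutant libraries are a later block of the deposit. That block cannot be told apart from genotype or history when their levels are set beside other groups, so those levels were not tested. Only their response to shade was tested, alone and against the WT response. In the test against the WT response, block cannot be told apart from genotype either.

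**Figure D1:**
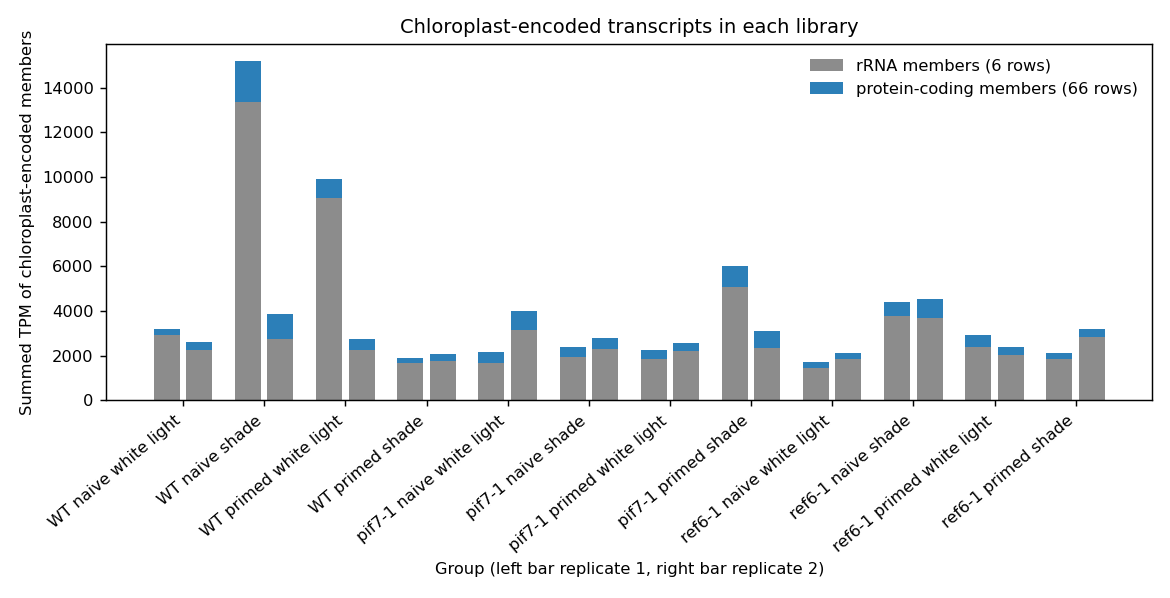
Summed TPM of the 72 chloroplast-encoded genes in each of the 24 libraries, as bars from 0, with the rRNA genes in grey and the protein-coding genes in blue (identical copies counted in both places). The 3 tallest bars are replicate 1 of naive shaded WT (15193 TPM), of primed WT in white light (9915 TPM) and of primed shaded pif7-1 (5998 TPM), each beside a lower replicate 2.

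Levels differed widely between roles. TPM is scaled by gene length, but neither the gene lengths used nor the strandedness is given in the sources used here. Levels of different genes are therefore only roughly comparable. This holds least for genes listed at 0 in some libraries and very high in others. Ribosomal RNA came highest. The 16S rRNA gene rrn16S (ATCG00920 and ATCG01210) had a median of 737 TPM over the 24 libraries and a range of 576 to 3548 TPM. The 23S gene rrn23S (ATCG00950 and ATCG01180) had a median of 323 TPM and a range of 158 to 2692 TPM. The 5S gene rrn5S (ATCG00970 and ATCG01160) was listed at 0 in 18 libraries and at 210 to 788 TPM in the other 6. An exact 0 beside such values may be a failed estimate rather than a missing transcript.

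Among the protein-coding genes the highest medians belonged to psaJ, rpl32, psbA and the pair atpE and atpB. The psbA gene (ATCG00020) encodes the D1 protein of photosystem II, which is replaced continually in the light, and it had a median of 70.0 TPM and a range of 23.4 to 372 TPM. The psaJ gene (ATCG00630), for a small photosystem I subunit, had a median of 105.8 TPM and ran from 0 to 573 TPM. Both photosystem I reaction centre genes were low beside it, with medians of 2.96 TPM for psaB (ATCG00340) and 2.01 TPM for psaA (ATCG00350). The rpl32 gene (ATCG01020), for a protein of the large ribosomal subunit, had a median of 44.8 TPM and ran from 0 to 275 TPM. Both psaJ and rpl32 thus held very high values in some libraries and 0 in others, in 2 libraries for psaJ and 3 for rpl32. Their rank above the other protein-coding genes is therefore uncertain.

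In photosystem II, psbC (ATCG00280) and psbD (ATCG00270), which encode the CP43 antenna and the D2 protein, had medians of 12.8 and 6.3 TPM. Their reading frames overlap, so their counts may share reads. The small-subunit genes psbK (ATCG00070) and psbE (ATCG00580) had medians of 9.25 and 2.74 TPM, and psbB (ATCG00680), for the CP47 antenna, 1.87 TPM. Of the cytochrome b6f genes, petB (ATCG00720) had a median of 3.1 TPM, petN (ATCG00210) 2.46 TPM, petD (ATCG00730) 2.23 TPM and petA (ATCG00540) 1.92 TPM. In the ATP synthase, atpE (ATCG00470) and atpB (ATCG00480), which encode the epsilon and beta subunits and overlap each other, had medians of 21.1 and 18.7 TPM, ahead of atpH at 7.17 TPM, atpA at 3.56 TPM and atpF at 3.48 TPM. The atpB gene was the steadiest of the 40 genes above 0 in all libraries. It ran from 13.85 to 27.15 TPM, a 1.96-fold range, the only range under 4-fold among those 40, while atpE beside it ran 5.33-fold, from 11.5 to 61.3 TPM.

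The NDH complex, which returns electrons to the plastoquinone pool, was low throughout, with medians of at most 2.02 TPM, led by ndhJ (ATCG00420) at 2.02 TPM, ndhK at 1.69 TPM, ndhC at 1.56 TPM, and the copies ndhB.2 at 1.5 TPM and ndhB.1 at 1.12 TPM. The rbcL gene (ATCG00490), for the large subunit of Rubisco, had a median of 13.5 TPM and ran from 5.13 to 69.1 TPM. Other proteins followed with cemA (ATCG00530), an envelope membrane protein gene, at 6.9 TPM, clpP (ATCG00670), a protease subunit, at 2.5 TPM, ycf3, a photosystem I assembly factor, at 1.5 TPM, and the intron maturase gene matK (ATCG00040) at 0.575 TPM. Both RNA polymerase genes that met the rule were near 1 TPM, rpoB (ATCG00190) at 1.17 TPM and rpoA (ATCG00740) at 0.9 TPM. Among 22 ribosomal protein rows, rps14 (ATCG00330) had a median of 14.5 TPM, both rpl2 copies (ATCG00830 and ATCG01310) 6.65 TPM, rpl16 (ATCG00790) 6.18 TPM, and rps2 (ATCG00160) 0.325 TPM.

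Sparse detection limited many of these genes. Of the 72, 22 reached 1 TPM in all libraries, 32 were listed at 0 in at least 1 library, 16 reached 1 TPM in no more than 6 libraries, and 60 had a median under 10 TPM. Just inside the rule stood rpl20, whose highest value was 2.02 TPM and which reached 1 TPM in 2 libraries, and ycf1.1 (ATCG01000), with a highest value of 1.95 TPM. Just outside it stood ndhF and ycf1.2, which each reached 1.03 TPM in 1 library. Also outside were rpoC2, at most 0.73 TPM, accD, a fatty acid synthesis gene, at most 0.8 TPM, and ycf2, at most 0.43 TPM. All 37 tRNA rows were listed at 0 in every library, as were 10 of the other 24 rows outside the rule, among them rpoC1 and the very short genes psbF, psbM, psbT, petG, petL and psaI.

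**Figure D2:**
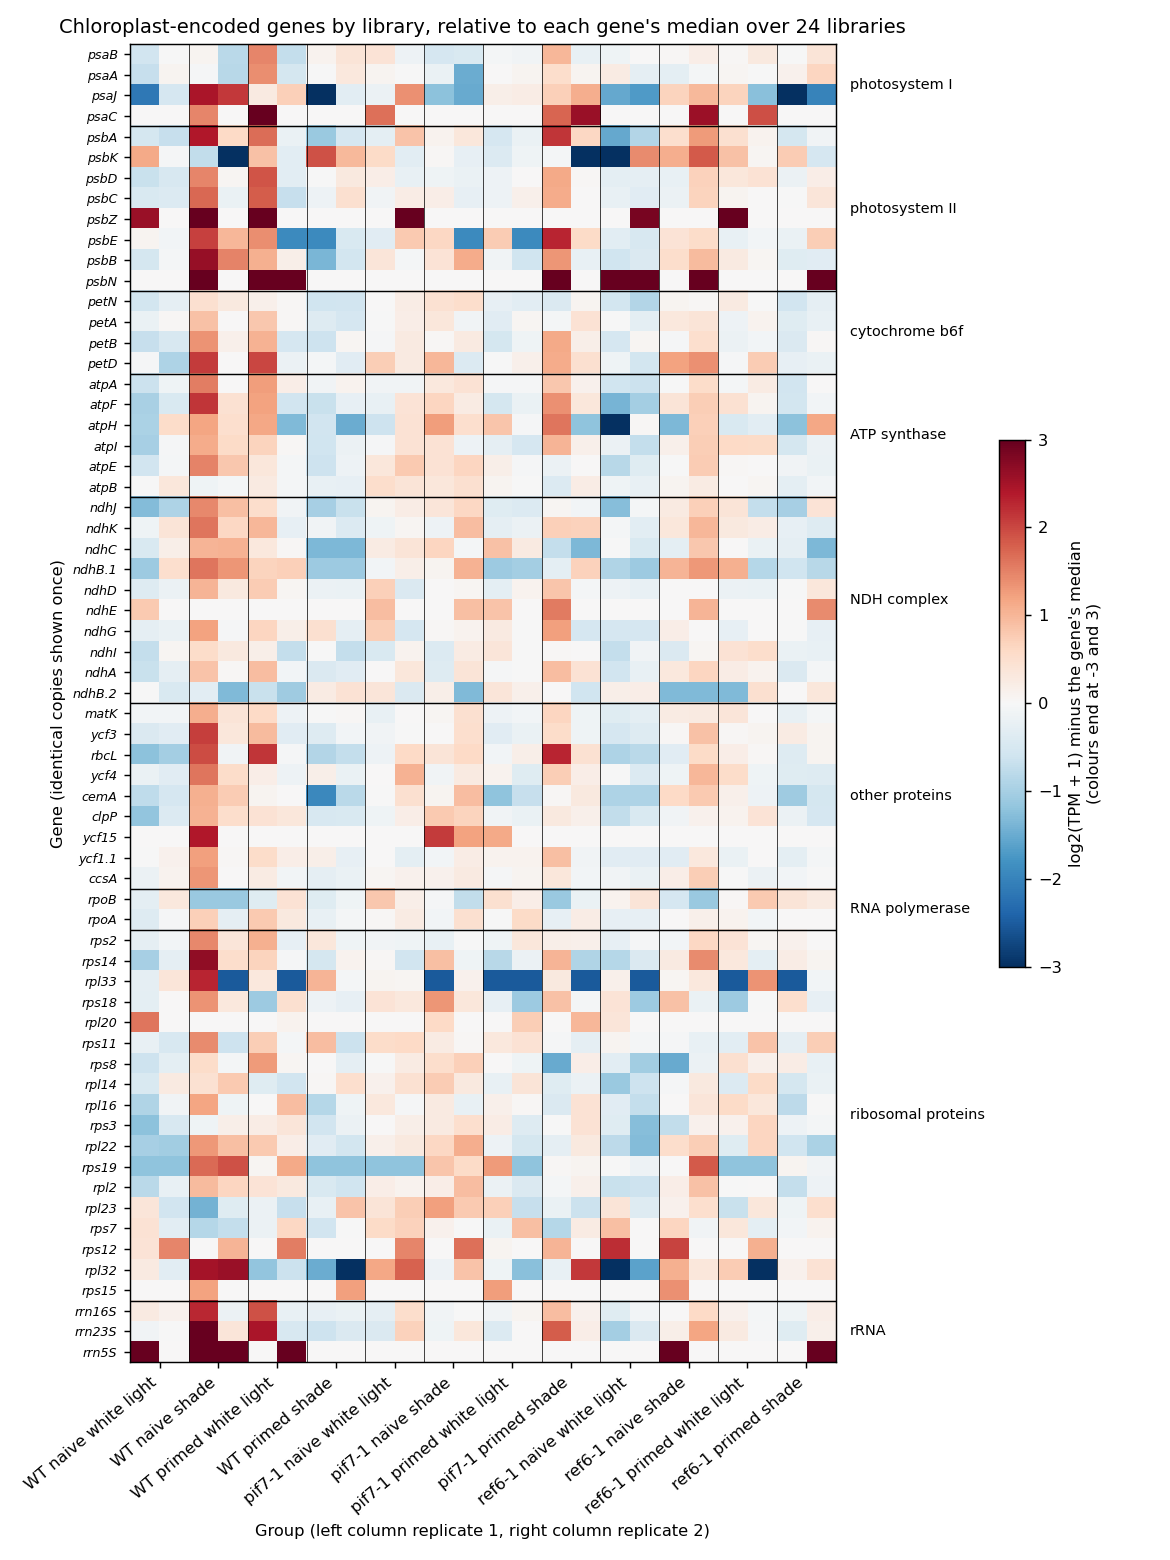
Each chloroplast-encoded gene (rows by role, identical copies once) in each of the 24 libraries (columns), as log2(TPM + 1) minus that gene's median, with red above and blue below the median and colours ending at -3 and 3. Replicate 1 of naive shaded WT is red across nearly all roles, with rpoB, psbK, rpl23 and rps7 among the exceptions, and genes listed at 0 in most libraries appear as lone dark cells.

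The first comparison asked what 1 h of shade did in naive WT seedlings. Of the 72 genes, 23 rose and 1 fell (limma on log2(TPM + 1), Benjamini-Hochberg adjusted p under 0.05 over 21473 genes), or 22 and 1 of the 64 distinct ones. The share called in either direction was 33.3%, close to the 35.6% of all tested genes, whereas 12.5% of all tested genes were called higher. The median log2 fold change was 1.01 for the 72 genes and -0.0986 for all tested genes. After quantile normalization the latter became 0.00434, with 4170 genes called higher and 4369 lower in place of 2681 and 4969, and 30 chloroplast genes were called in place of 24. Replicate 1 was above replicate 2 in naive shade for 57 of the 72 genes. In 42 genes both shaded libraries lay above both white-light libraries, against 24% of all tested genes, in 17 more only replicate 1 did, and in none did replicate 2 alone. The count of called genes was 10 without replicate 1 in shade, 40 without replicate 2 in shade, 11 without replicate 1 in white light, and 13 without the 3 libraries of highest chloroplast sum. Mitochondria-encoded genes moved with them, with 15 of 37 higher and none lower, and their part in the result was not tested.

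Calls that held with each of the 4 compared libraries left out came from 9 distinct genes of several roles (10 rows with both rpl2 copies): psbB, petN, atpE, ndhJ, cemA, clpP, rpl22, rps19 and rpl2. The clpP gene stood at 0.55 and 1.62 TPM in white light and 6.25 and 4.05 TPM in shade (log2 fold change 1.59, SE 0.24, adjusted p = 0.000135). The rpl22 gene (ATCG00810), for a large-subunit ribosomal protein, stood at 1.48 and 1.41 TPM in white light and 11.3 and 8.23 TPM in shade (log2 fold change 2.13, SE 0.31, adjusted p = 0.000111). For both genes both shaded libraries lay above both white-light libraries. These libraries also gave the calls, so the separation adds no further support.

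The atpE gene stood at 13.9 and 20.2 TPM in white light and 61.3 and 37.6 TPM in shade (log2 fold change 1.46, SE 0.27, adjusted p = 0.000834). Its overlapping neighbour atpB stood at 18.6 and 23.8 TPM in white light and 17.0 and 17.8 TPM in shade, with both shaded libraries below both white-light libraries (log2 fold change -0.26, SE 0.17, adjusted p = 0.243). Rises came in 4 of the 6 ATP synthase genes, namely atpA, atpE, atpF and atpI, which carry the catalytic head, the stalk and the membrane part. The atpF gene went from 1.28 and 2.26 TPM to 18.9 and 5.16 TPM (log2 fold change 2.02, SE 0.54, adjusted p = 0.00849), with most of the difference in replicate 1. The atpF call was lost without replicate 1 of either light, as were those of atpA and atpI.

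Among the psb genes, psbB and psbA rose, 2 of 8. The psbB gene stood at 0.98 and 1.77 TPM in white light and 16.7 and 7.02 TPM in shade (log2 fold change 2.35, SE 0.47, adjusted p = 0.00137). The psbA gene stood at 47.9 and 43.1 TPM in white light and 372 and 106 TPM in shade (log2 fold change 2.11, SE 0.63, adjusted p = 0.0163), both shaded libraries above both others. Without replicate 1 in shade the psbA call was lost, as it was without either white-light library, with adjusted p up to 0.228. The psbD and psbC genes went from 3.6 and 4.23 to 19.2 and 6.56 TPM and from 9.07 and 9.44 to 44.4 and 10.97 TPM, and neither passed.

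In photosystem I none of 4 genes passed, with 0.0775 the adjusted p of psaJ. The psaJ gene nonetheless had well separated libraries, at 22.9 and 73.7 TPM in white light against 573 and 458 TPM in shade (log2 fold change 3.60, SE 1.53). Its error was large because the fit pools the spread of all groups, and psaJ was listed at 0 in 1 library each of primed shaded WT and primed shaded ref6-1. The reaction centre genes did not separate by light. The psaB gene stood at 1.66 and 2.95 TPM in white light and 3.19 and 1.27 TPM in shade, and psaA at 0.85 and 2.2 TPM and 1.96 and 0.7 TPM. The rps14 gene, next to psaB in the RefSeq annotation (TAIR10.1, used for names and gene order only), went from 6.71 and 11.9 TPM to 97.4 and 21.3 TPM (log2 fold change 2.23, SE 0.66, adjusted p = 0.0154). Directly neighbouring genes thus held quite different values in the same libraries.

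Of the cytochrome b6f genes petN and petB rose, 2 of 4. The petN gene was called with each library left out, at 1.35 and 1.85 TPM in white light and 3.85 and 3.25 TPM in shade (log2 fold change 0.81, SE 0.19, adjusted p = 0.00424). The petB gene went from 1.52 and 1.96 TPM to 9.4 and 3.54 TPM (adjusted p = 0.0355), a call lost without replicate 1 in shade or either white-light library. In the NDH complex 3 of 10 rose, namely ndhJ, ndhC and ndhB.1. The ndhJ gene stood at 0.22 and 0.58 TPM in white light and 7.12 and 4.59 TPM in shade (log2 fold change 2.28, SE 0.45, adjusted p = 0.00123). The ndhC gene went from 0.86 and 1.89 TPM to 4.22 and 4.29 TPM (adjusted p = 0.0291), alike in both shaded libraries, and ndhB.1 from 0 and 2.03 TPM to 5.49 and 4.32 TPM (adjusted p = 0.0182). Both calls were lost without replicate 1 of either light, and that of ndhC also without replicate 2 in shade. The copy ndhB.2 went from 1.49 and 0.81 TPM to 1 and 0 TPM and did not pass.

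Among other proteins 6 of 10 rose, namely matK, ycf3, rbcL, ycf4, cemA and clpP. The cemA gene went from 3.63 and 4.59 TPM to 15.7 and 12.3 TPM (log2 fold change 1.55, SE 0.33, adjusted p = 0.00195), nearly alike in both shaded libraries. The rbcL gene went from 5.13 and 6.13 TPM to 54.9 and 12.5 TPM (log2 fold change 2.05, SE 0.68, adjusted p = 0.0272), with replicate 1 more than 4-fold above replicate 2. The ycf3 gene went from 0.85 and 0.96 TPM to 9.52 and 2.18 TPM (log2 fold change 1.60, SE 0.46, adjusted p = 0.0132), again mainly in replicate 1. The matK gene went from 0.5 and 0.5 TPM to 2.36 and 1.06 TPM (adjusted p = 0.0431). The calls of matK, rbcL and ycf4 were each lost without replicate 1 in shade or either white-light library.

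Ribosomal protein genes gave 6 rises among 22 rows, in rps2, rps14, rpl22, rps19 and both rpl2 copies. The rps19 gene was listed at 0 in both white-light libraries and stood at 6.6 and 7.78 TPM in shade (adjusted p = 0.00127), and both rpl2 copies went from 3.39 and 5.53 TPM to 13.7 and 11.04 TPM (log2 fold change 1.31, SE 0.26, adjusted p = 0.00122). By RefSeq gene order rpl22, rps19 and rpl2 follow each other directly, and all 3 held their calls with each library left out. The genes on the near side of the same cluster, rps3 and rpl16, did not pass, with rpl16 at 2.82 and 5.73 TPM in white light and 15.4 and 5.57 TPM in shade. The rpl22 and rps3 frames overlap, so their counts may share reads. The rps2 gene went from 0.1 and 0.26 TPM to 2.62 and 0.7 TPM (adjusted p = 0.0438). The rpl32 gene, at 54.1 and 35.4 TPM in white light and 257 and 275 TPM in shade, had well separated libraries but did not pass (adjusted p = 0.226).

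The only fall was in the RNA polymerase. The rpoB gene stood at 0.77 and 1.7 TPM in white light and was listed at 0 in both shaded libraries (adjusted p = 0.0285), a call lost without either shaded library or replicate 2 in white light. The rpoA gene, for the alpha subunit, went from 0.45 and 0.84 TPM to 2.11 and 0.57 TPM and did not pass. Of the 5 genes listed as read by the nuclear-encoded polymerase, rpoB alone met the rule, so the list could not be set against the 17 psa, psb, pet and rbcL genes, of which 5 rose. Ribosomal RNA did not pass in any of 6 rows. The rrn23S gene stood at 302 and 322 TPM in white light and 2692 and 414 TPM in shade (adjusted p = 0.113), and rrn16S at 892 and 812 TPM and 3548 and 649 TPM (adjusted p = 0.323), so replicate 2 in shade lay below both white-light libraries for rrn16S.

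**Figure D3:**
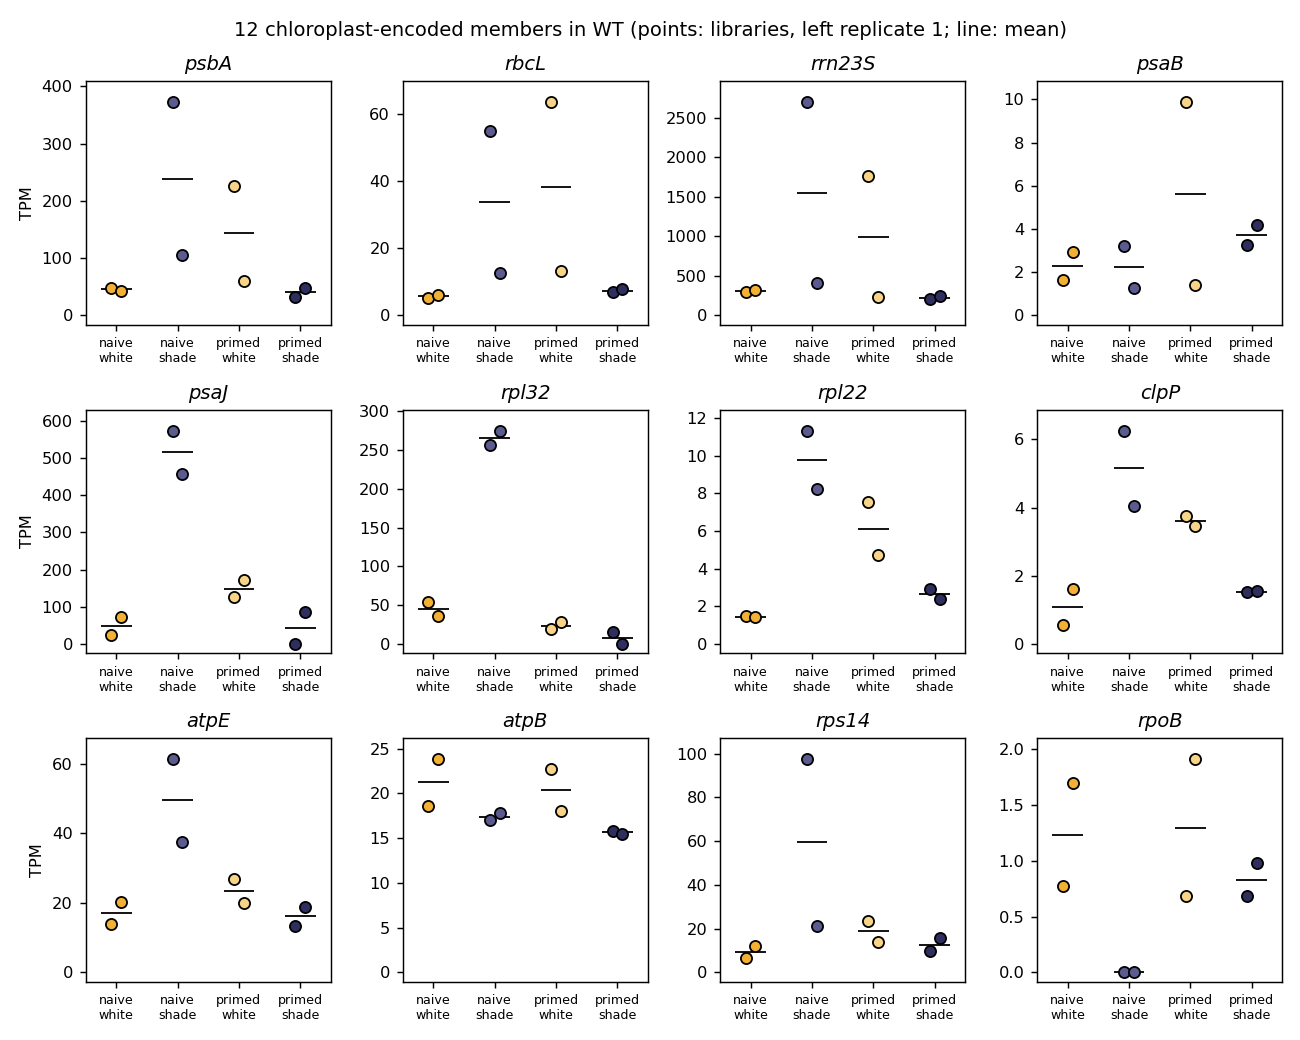
TPM of 12 chloroplast-encoded genes in the WT groups, with points for single libraries (replicate 1 on the left of each pair), lines for the mean of 2 libraries, and a separate linear axis for each gene. The genes psaJ, rpl32, rpl22 and clpP are high in both naive shaded libraries, psbA, rbcL and rrn23S mainly in replicate 1 of naive shade and of primed white light, and atpB stays between 15.5 and 23.8 TPM.

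The second comparison asked the same of primed WT seedlings. Here none of the 72 genes rose and 12 fell, 11 of them distinct. The 16.7% called compares with 23.4% of all tested genes called in either direction, and with 8.94% called lower. The median log2 fold change was -0.68 for the 72 genes and 0.0164 for all tested genes, and the fitted value was below 0 in 61 of the 72. Those that fell were psbB and psbN among the psb genes, petA and petN in cytochrome b6f, and ndhC and ndhB.1 in the NDH complex. The others were cemA and clpP among other proteins, and rpl22, rps19 and both rpl2 copies in the ribosome. No called gene kept its call with each compared library left out. The count was 0 without replicate 1 in shade, 3 without replicate 2 in shade, 2 without replicate 1 in white light, and 2 without the 3 libraries of highest sum (1 higher and 1 lower).

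The cemA gene stood at 7.4 and 6.93 TPM in white light and 1.08 and 3.48 TPM in shade (log2 fold change -1.42, SE 0.33, adjusted p = 0.00587). The clpP gene stood at 3.74 and 3.46 TPM in white light and 1.52 and 1.55 TPM in shade (log2 fold change -0.86, SE 0.24, adjusted p = 0.0156). Both groups were tight for clpP and did not overlap for either gene, in the same libraries that gave the calls. The psbB gene went from 4.99 and 2.24 TPM to 0.1 and 0.97 TPM (log2 fold change -1.58, SE 0.47, adjusted p = 0.0238). The ndhC gene went from 2.2 and 1.63 TPM to 0 in both shaded libraries (adjusted p = 0.0109), and ndhB.1, at 2.36 and 2.46 TPM in white light, was likewise listed at 0 in both (adjusted p = 0.0254). Its near-identical copy ndhB.2 moved the other way in the same libraries, from 0.58 and 0.19 TPM to 1.97 and 2.38 TPM (adjusted p = 0.108), and reads of such copies cannot be divided with certainty. The psbN gene, in a gene cluster with psbB, was listed at 39.5 and 28.0 TPM in white light and at 0 in both shaded libraries (adjusted p = 0.0408), and it was listed at 0 in 16 of all 24 libraries.

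The rps19 gene went from 1.44 and 4.12 TPM to 0 in both shaded libraries (adjusted p = 0.0389). The rpl22 gene went from 7.53 and 4.73 TPM to 2.91 and 2.38 TPM (log2 fold change -0.94, SE 0.31, adjusted p = 0.0366), rpl2 from 9.2 and 8.32 TPM to 4.56 and 4.09 TPM (log2 fold change -0.87, SE 0.26, adjusted p = 0.0233), and petN from 2.85 and 2.56 TPM to 1.28 and 1.33 TPM (log2 fold change -0.68, SE 0.19, adjusted p = 0.0178). The petA gene, for cytochrome f, went from 4.12 and 2.02 TPM to 1.22 and 1.05 TPM (log2 fold change -0.88, SE 0.29, adjusted p = 0.0373). Genes with a single high library in white light did not pass. The psbA gene stood at 226 and 60.7 TPM in white light and 31.7 and 48.7 TPM in shade (adjusted p = 0.086), and rbcL at 63.4 and 13.2 TPM and 6.85 and 7.87 TPM (adjusted p = 0.0585). Of the 12 genes that fell here, 10 (83.3%) were among the 23 that rose in naive seedlings (43.5% of those), in comparisons that share no library but use the same pooled error for each gene. Over all tested genes, 16.9% of those called lower here were called higher in naive seedlings (12.1% of those). Mitochondria-encoded genes gave no call here, with 6 of 37 at an unadjusted p under 0.05.

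The difference between the responses of primed and naive WT was tested directly. It was lower in primed seedlings for 31 of the 72 genes (29 of 64 distinct) and higher for none, beside 35.4% of all tested genes in either direction and 12.4% lower. The median difference of log2 fold changes was -1.67 for the 72 genes and 0.123 for all tested genes, and it draws on the same 8 WT libraries as the comparisons above. By role these were all 4 cytochrome b6f genes, 4 of 6 ATP synthase genes, 6 of 10 NDH genes and 3 of 8 psb genes. Photosystem I gave 1 of 4 (psaJ), other proteins 4 of 10, ribosomal protein rows 7 of 22, and rRNA both rrn23S rows. No RNA polymerase gene was among them. The count ran from 18 without replicate 1 in naive shade to 42 without replicate 2 in naive shade, and was 19 without replicate 1 in primed shade, 20 without replicate 1 in primed white light, and 16 without the 3 libraries of highest sum (2 higher and 14 lower).

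In all, 15 of the 31 kept the call with each of the 8 libraries left out, and 13 of them in every other setting as well. The clpP gene had the smallest p (difference of log2 fold changes -2.45, SE 0.33, adjusted p = 8.27e-05), followed by rpl22 (-3.07, SE 0.44, adjusted p = 0.000116) and cemA (-2.97, SE 0.46, adjusted p = 0.000235). Among the photosynthesis genes the difference was -3.93 for psbB (SE 0.67, adjusted p = 0.000453), -1.50 for petN (SE 0.27, adjusted p = 0.000749) and -3.33 for ndhJ (SE 0.64, adjusted p = 0.00107). Larger errors belonged to the differences of psaJ (-7.60, SE 2.16, adjusted p = 0.0128), rbcL (-3.91, SE 0.96, adjusted p = 0.00543) and psbA (-3.66, SE 0.89, adjusted p = 0.00518). For psaA (adjusted p = 0.879), psaB (adjusted p = 0.968) and atpB (adjusted p = 0.798) no difference was detectable with 2 libraries a group.

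Priming was also compared within each light, in WT libraries that the comparisons above also use. In white light 2 of 72 genes were higher in primed seedlings, clpP and rpl22, against 7.53% of all tested genes, and 19 had an unadjusted p under 0.05. The clpP gene stood at 0.55 and 1.62 TPM in naive and 3.74 and 3.46 TPM in primed seedlings (log2 fold change 1.19, SE 0.24, adjusted p = 0.00697), and kept its call with each library left out. The rpl22 gene stood at 1.48 and 1.41 TPM and 7.53 and 4.73 TPM (log2 fold change 1.52, SE 0.31, adjusted p = 0.00799), a call lost without replicate 1 in primed white light or replicate 2 in naive white light. The count was 1 without either of those libraries and without the 3 libraries of highest sum, 5 without replicate 2 in primed white light, and reached 7 without single libraries of other groups.

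In shade, 28 of the 72 genes were lower in primed than in naive WT and 1, psbK, was higher. That 40.3% compares with 43.1% of all tested genes in either direction, and with 21.0% lower. The largest falls without a group at 0 were in rpl32 (257 and 275 TPM in naive, 15.3 and 0 TPM in primed, adjusted p = 0.00651), psaJ (573 and 458 TPM against 0 and 84.6 TPM, adjusted p = 0.00627), psbB (log2 fold change -3.02, SE 0.47, adjusted p = 0.000144), psbE (-2.71, SE 1.03, adjusted p = 0.0434), psbA (-2.31, SE 0.63, adjusted p = 0.00769), cemA (-2.29, SE 0.33, adjusted p = 7.08e-05) and rrn23S (-2.23, SE 0.84, adjusted p = 0.0414). The rps19, ndhC, ndhB.1 and rrn5S genes also passed and were listed at 0 in both primed shaded libraries. Of these genes, psbB, cemA, rps19, ndhC and ndhB.1 kept the call with each compared library left out. The psbE and rrn5S calls were lost without any single compared library, and the rrn23S call held only without replicate 2 of naive shade. The psbA call was lost without replicate 1 of either history, psaJ without replicate 1 and rpl32 without replicate 2 of primed shade. The psbK gene stood at 5.19 and 0 TPM in naive and 37.65 and 19.05 TPM in primed shade (log2 fold change 3.48, SE 1.24, adjusted p = 0.0329). That call was lost without either primed shaded library or replicate 2 of naive shade, where psbK was listed at 0. It was also lost with no filter, a pseudocount of 0.1 or only the compared groups in the fit. The count of called genes was 15 without replicate 1 and 42 without replicate 2 of naive shade, 16 without replicate 1 and 17 without replicate 2 of primed shade, and 16 without the 3 libraries of highest sum. Mitochondria-encoded genes were lower in 16 of 37 cases.

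**Figure D4:**
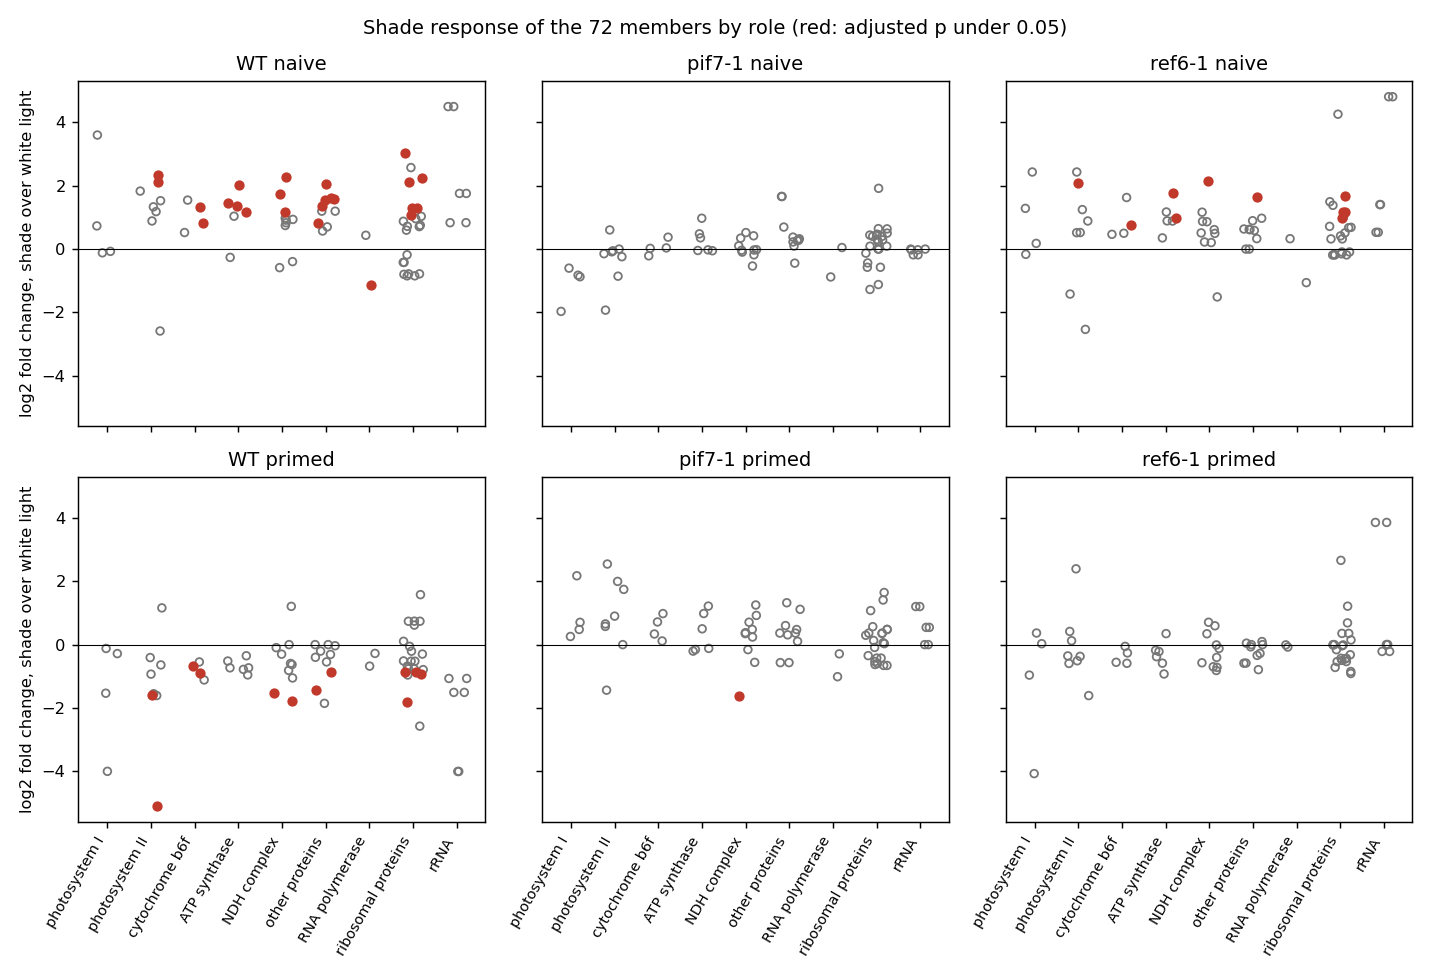
Fitted log2 fold change of shade over white light for each of the 72 genes (points, spread sideways within each role for visibility), in WT, pif7-1 and ref6-1 seedlings, naive above and primed below, with red points for adjusted p under 0.05 (limma). The points lie above 0 for 57 genes in naive WT and 58 in naive ref6-1, below 0 for 61 in primed WT, and to either side of 0 in naive pif7-1 (36 above, 32 below). Values of genes listed at 0 in both libraries of a group depend on the pseudocount.

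The pif7-1 seedlings were examined for the same responses. In naive pif7-1 none of the 72 genes passed, against 7.38% of all tested genes, and 5 had an unadjusted p under 0.05 (limma). The median log2 fold change was 0.000799 for the 72 genes and -0.0847 for all tested genes. The psbA gene stood at 56.7 and 128 TPM in white light and 75.7 and 88.8 TPM in shade, rpl22 at 4.52 and 5.06 TPM and 6.67 and 9.57 TPM, and atpE at 27.04 and 37.1 TPM and 29.03 and 33.4 TPM. The shaded libraries lay between the white-light libraries for psbA and atpE, and above them for rpl22. Summed transcripts were 2180 and 3994 TPM in white light and 2407 and 2778 TPM in shade, and no mitochondria-encoded gene passed (1 of 37 at an unadjusted p under 0.05).

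Tested against the naive WT response, the naive pif7-1 response was lower for 2 of the 72 genes, against 12.9% of all tested genes. These were atpE (difference of log2 fold changes -1.49, SE 0.39, adjusted p = 0.0207) and rpl22 (-1.49, SE 0.44, adjusted p = 0.0357). Fitted differences were below 0 in 58 of the 72, with a median of -1.01 beside 0.0253 for all tested genes. Neither call held with each of the 8 libraries left out. The count was 0 without replicate 1 of naive WT in either light, replicate 2 of naive pif7-1 in white light or replicate 1 of naive pif7-1 in shade, 4 without replicate 2 of naive WT in white light or either primed shaded WT library, 5 without replicate 2 of naive shaded pif7-1, and 7 without replicate 2 of naive shaded WT. It was 0 without the 3 libraries of highest sum. Both responses were tested in a fit that shares the naive WT libraries with the comparisons above. The naive pif7-1 libraries are of the later block, which cannot be told apart from genotype in this difference.

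In primed pif7-1 1 of the 72 genes passed, against 5.01% of all tested genes. The ndhC gene fell from 3.71 and 2.1 TPM to 0.55 and 0 TPM (log2 fold change -1.62, SE 0.39, adjusted p = 0.0298), a call lost without any one of the 4 compared libraries. The count was 4 (3 higher and 1 lower) without replicate 2 in shade and 2 without either primed shaded WT library. The fitted value was above 0 in 49 of the 72 genes. The psbA gene stood at 48.9 and 60.2 TPM in white light and 312 and 109 TPM in shade (adjusted p = 0.113), and rbcL at 12.6 and 15.3 TPM and 69.1 and 18.8 TPM (adjusted p = 0.256). Both shaded libraries lay above both others for these genes, replicate 1 far more than replicate 2.

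Against the primed WT response, the primed pif7-1 response was higher for 11 of the 72 genes (10 distinct) and lower for none, beside 16.1% of all tested genes in either direction and 3.34% higher. They were psbA, psbB and psbN, atpI, ndhA and ndhB.1, rbcL, cemA and clpP, and both rpl2 copies. The cemA difference alone kept its call with each library left out (2.53, SE 0.46, adjusted p = 0.00311), with 2.41 and 3.9 TPM in white light and 7.13 and 8.64 TPM in shade in pif7-1. The difference was 3.29 for psbA (SE 0.89, adjusted p = 0.0212), 3.18 for rbcL (SE 0.96, adjusted p = 0.0347), 2.48 for psbB (SE 0.67, adjusted p = 0.0208), 1.72 for atpI (SE 0.52, adjusted p = 0.0372), 1.52 for ndhA (SE 0.49, adjusted p = 0.0464), 1.24 for rpl2 (SE 0.37, adjusted p = 0.0322) and 1.22 for clpP (SE 0.33, adjusted p = 0.022). The count was 2 without replicate 1 of primed WT in either light or replicate 2 of primed pif7-1 in white light, 4 without replicate 2 of primed shaded WT or replicate 1 of primed pif7-1 in white light, 7 without replicate 1 of primed shaded pif7-1, 21 without replicate 2 of primed WT in white light, and 1 without the 3 libraries of highest sum.

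Levels of primed pif7-1 were then compared with primed WT. In white light no gene passed, against 5.70% of all tested genes, and 8 had an unadjusted p under 0.05. In shade 5 of 72 were higher in pif7-1 and none lower, against 18.9% of all tested genes in either direction and 4.93% higher. These were cemA (1.08 and 3.48 TPM in WT, 7.13 and 8.64 TPM in pif7-1, log2 fold change 1.54, SE 0.33, adjusted p = 0.00473), psbA (2.20, SE 0.63, adjusted p = 0.0232), rbcL (2.16, SE 0.68, adjusted p = 0.0359), psbB (1.51, SE 0.47, adjusted p = 0.035) and ndhA (1.07, SE 0.35, adjusted p = 0.0414). No call held with each library left out, and the count was 1 without replicate 1 and 2 without replicate 2 of primed shaded WT, and 3 without replicate 1 of primed shaded pif7-1.

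In seedlings labelled ref6-1, naive shade gave 10 higher genes of 72 (9 distinct) and none lower. The 13.9% called compares with 17.4% of all tested genes in either direction and with 8.96% higher, and the median log2 fold change was 0.63 beside 0.00207 for all tested genes. They were psbA in photosystem II, petN in cytochrome b6f, atpE and atpF in the ATP synthase, ndhB.1 in the NDH complex, cemA, and rpl14, rpl22 and both rpl2 copies in the ribosome. The cemA gene stood at 3.14 and 3.14 TPM in white light and 11 and 12.7 TPM in shade (log2 fold change 1.63, SE 0.33, adjusted p = 0.00394). The rpl22 gene stood at 1.88 and 1.01 TPM in white light and 6.21 and 7.34 TPM in shade (log2 fold change 1.69, SE 0.31, adjusted p = 0.00212). These were the 2 genes called with each compared library left out, and their groups did not overlap.

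The psbA gene stood at 23.4 and 37.4 TPM in white light and 98.9 and 171 TPM in shade in naive ref6-1 (log2 fold change 2.10, SE 0.63, adjusted p = 0.0318). The ndhB.1 gene stood at 0.13 and 0 TPM and 3.28 and 4.24 TPM (log2 fold change 2.16, SE 0.53, adjusted p = 0.0132). Its copy ndhB.2, at 1.84 and 1.86 TPM in white light, was listed at 0 in both shaded libraries (not passed). The atpF gene went from 0.7 and 1.21 TPM to 4.81 and 6.48 TPM (log2 fold change 1.77, SE 0.54, adjusted p = 0.0337), atpE from 11.5 and 16.1 TPM to 20.9 and 36.4 TPM (log2 fold change 0.97, SE 0.27, adjusted p = 0.0247), and rpl2 from 3.8 and 4.01 TPM to 7.74 and 13.2 TPM (log2 fold change 1.18, SE 0.26, adjusted p = 0.00683). The petN gene went from 1.38 and 0.87 TPM to 2.66 and 2.54 TPM (log2 fold change 0.77, SE 0.19, adjusted p = 0.0135), and rpl14 from 1.45 and 2.47 TPM to 4.18 and 5.49 TPM (log2 fold change 0.99, SE 0.33, adjusted p = 0.0472). The lights overlapped in none of these called genes, cemA and rpl22 included. The same libraries gave the calls, so this adds no separate support.

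In naive shaded ref6-1 the protein-coding genes summed to 596 and 850 TPM, and rrn23S stood at 364 and 731 TPM. Both rrn5S rows were listed at 788 TPM in replicate 1 and at 0 in replicate 2. With these rows counted, and unlike in naive shaded WT, the sums of the 72 genes were alike, 4387 and 4551 TPM. They were 1705 and 2137 TPM in white light. The count of higher genes was nonetheless 2 without replicate 2 in shade and 3 without replicate 1 in white light, 18 (with 1 lower) without the 3 libraries of highest sum, and 0 with only the naive ref6-1 libraries in the fit. Of the 10 genes, 9 (90.0%) were among the 23 that rose in naive WT (39.1% of those), in comparisons that share no library but use the same pooled error for each gene. Over all tested genes, 60.2% of those called higher here were also called higher in naive WT (43.2% of those). Mitochondria-encoded genes were higher in 6 of 37 cases, and their part was not tested. The difference between the naive ref6-1 and naive WT responses passed for none of the 72 genes (limma), while 2.13% of all tested genes passed. Of the 72, 4 had an unadjusted p under 0.05. Block of the deposit and genotype cannot be told apart in this difference.

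Primed ref6-1 gave no called gene after shade, against 12.7% of all tested genes, with 6 of 72 at an unadjusted p under 0.05 and a median log2 fold change of -0.20. The rpl22 gene had the smallest adjusted p, 0.0643, at 2.87 and 6.74 TPM in white light and 2.27 and 1.59 TPM in shade. The psbA gene stood at 97.1 and 74.9 TPM and 48.5 and 65.1 TPM, with both shaded libraries below both others. Against the primed WT response no difference passed (limma), while 2.65% of all tested genes passed. An unadjusted p under 0.05 was reached there by 4 of the 72. Against primed WT levels none passed in white light or in shade, while 15.5% and 6.22% of all tested genes passed. An unadjusted p under 0.05 was reached by 2 of the 72 in white light and 1 in shade.

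Nuclear genes that serve chloroplast transcription were described from a list of 24, namely 6 sigma factors, the phage-type polymerases RPOTp and RPOTmp, 12 polymerase-associated proteins (PAP1 to PAP12) and 4 genes of the Rubisco small subunit. In naive WT, shade raised 3 and lowered 3 of the 24, beside the 35.6% of all tested genes called in either direction. SIG4, a sigma factor gene, went from 33.4 and 36.4 TPM to 47.4 and 57.4 TPM (log2 fold change 0.57, SE 0.16, adjusted p = 0.0106). PAP4, an iron superoxide dismutase of the polymerase complex, and PAP7 rose by 0.42 and 0.47 on the log2 scale (adjusted p = 0.0367 and 0.00515). The small-subunit genes RBCS1A, RBCS2B and RBCS3B fell, RBCS2B from 12476 and 10504 TPM to 5000 and 5242 TPM (log2 fold change -1.16, SE 0.15, adjusted p = 4.26e-05). The large-subunit gene rbcL was called higher in these libraries, opposite to these 3 nuclear genes, though the rbcL call was lost without replicate 1 in shade (RBCS1B was not called).

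In primed WT, 1 of the 24 rose and 9 fell, beside 23.4% of all tested genes in either direction and 8.94% lower. RPOTmp went from 2.43 and 2.9 TPM to 5.4 and 6.12 TPM (log2 fold change 0.88, SE 0.17, adjusted p = 0.00208). PAP4 fell from 42.8 and 55.9 TPM to 27.2 and 32.1 TPM (log2 fold change -0.71, SE 0.15, adjusted p = 0.00318), together with PAP7, PAP9, PAP10, PAP12 and all 4 small-subunit genes. The difference between the primed and naive responses was lower for 7 of the 24 (SIG6, PAP4, PAP5, PAP7, PAP9, PAP10 and PAP12) and higher for RPOTmp and RBCS3B, beside 35.4% of all tested genes in either direction and 12.4% lower, with PAP4 at -1.13 (SE 0.21) and PAP7 at -0.93 (SE 0.16). In naive pif7-1 none of the 24 passed (limma, 8 at an unadjusted p under 0.05), while 7.38% of all tested genes were called. All 4 small-subunit genes differed from the naive WT response, RBCS2B by 1.30 (limma, adjusted p = 0.00104, 12.9% of all tested genes called). Block and genotype cannot be told apart in that difference. In primed pif7-1, SIG3, SIG5, SIG6 and PAP2 fell (5.01% of all tested genes called), each lower in replicate 1 in shade, which had the high chloroplast sum, than in replicate 2. The same held for every other sigma factor, phage-type polymerase and PAP gene of the list, called or not. All 4 small-subunit genes were higher in that replicate 1. SIG3 stood at 56.7 and 55.7 TPM in white light and 27.02 and 46.6 TPM in shade. In naive ref6-1 SIG5 alone fell (17.4% of all tested genes called), and in primed ref6-1 PAP3, PAP6, PAP8, RBCS1B and RBCS2B rose and SIG5 fell (12.7% of all tested genes called). Near-identical RBCS genes may share reads.

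**Figure D5:**
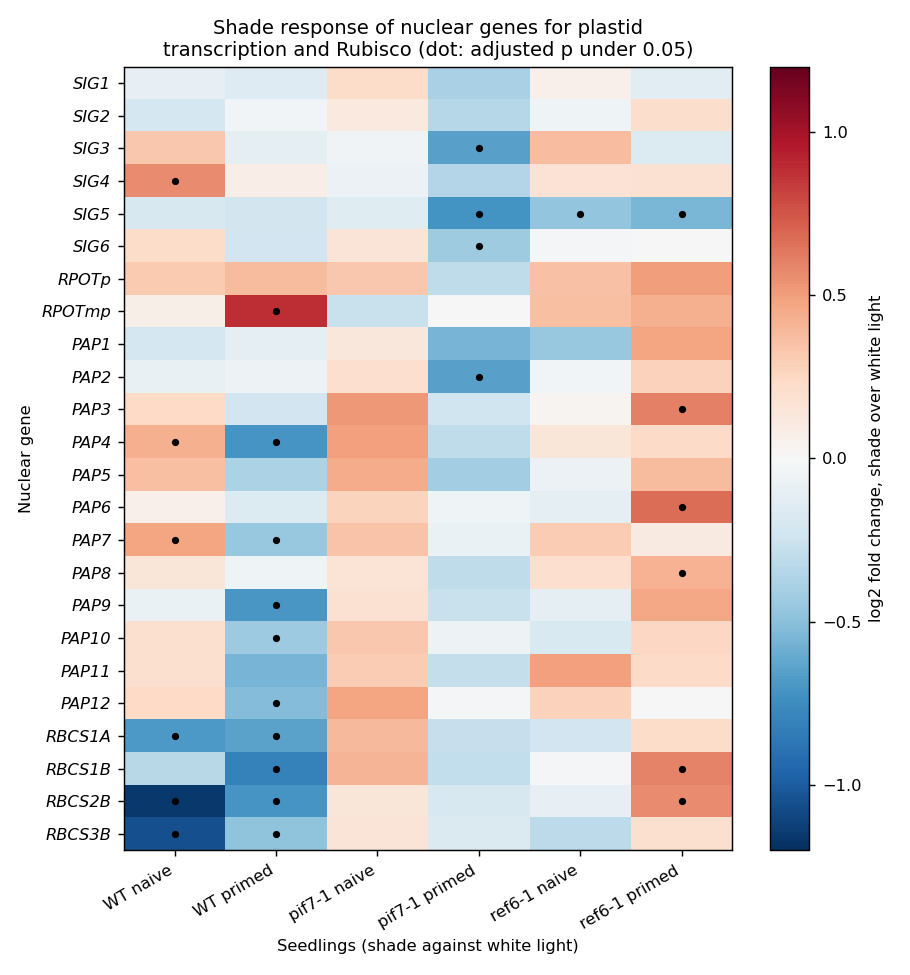
Fitted log2 fold change of shade over white light for 24 nuclear genes of plastid transcription and the Rubisco small subunit (rows) in the 6 combinations of genotype and history (columns), red for higher and blue for lower in shade, with a dot for adjusted p under 0.05 (limma). PAP4 and PAP7 are dotted red in naive WT and dotted blue in primed WT, and no gene is dotted in naive pif7-1.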

How the data were processed

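RNA sequencing values of 24 whole-seedling libraries were used as deposited by the authors, in TPM, in 1 table of 33026 genes. Per the submitters' processing notes, the tools were cutadapt, STAR, HTSeq, DESeq2 and FastQC and the build TAIR10, with no versions. The sources used here do not give how TPM was computed. Counts cannot be had from TPM, so depth and counting precision are unknown, and 12 groups of 2 libraries limit precision. Log2(TPM + 1) values of the 21473 genes with at least 1 TPM in 2 libraries were fitted with limma 3.58.1 (R 4.3.3) as 12 group means, with trended variances and 12 residual degrees of freedom. Fold changes on this scale understate changes of low genes. Adjusted p-values (Benjamini-Hochberg) run over all tested genes within each of 17 comparisons, with a threshold of 0.05. The procedure was tested on simulated data. The chloroplast genes, role lists and nuclear list were chosen with earlier results of these data known. Named genes are up to 10 largest rises and falls a comparison, preset representatives, and the 5 highest medians a role. Genes singled out beyond these were chosen after their values were seen. Alternatives were no filter, a pseudocount of 0.1, quantile normalization, a nuclear denominator, compared groups only, the replicate number as a block, and each library left out. Added after seeing the data were a fit without the 3 libraries of highest chloroplast sum and a denominator without chloroplast rRNA and tRNA.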

Additional observations from a re-analysis of the deposited data

Results flagged for a closer look

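Responses that differed between groups by a test of the difference itself (limma) numbered 31 of the 72 chloroplast genes between primed and naive WT, 2 between naive pif7-1 and naive WT, and 11 between primed pif7-1 and primed WT. These are 43.1%, 2.78% and 15.3% of the 72, beside 35.4%, 12.9% and 16.1% of all tested genes in either direction. All 31 were lower, beside 12.4% of all tested genes called lower. All 11 were higher, beside 3.34% called higher. Between primed and naive WT the largest differences of log2 fold changes among called genes with no group listed at 0 were -7.60 for psaJ, -3.93 for psbB, -3.91 for rbcL, -3.66 for psbA, -3.33 for ndhJ, -3.27 for rrn23S and -3.07 for rpl22. The psbN, rps19 and ndhB.1 genes were also among the largest of the called genes, and since a group was listed at 0 in both libraries only their adjusted p is given, 0.0356, 0.000585 and 0.00232. Naive pif7-1 differed from naive WT by -1.49 for atpE and -1.49 for rpl22, where block of the deposit and genotype cannot be told apart. Primed pif7-1 differed from primed WT by 3.29 for psbA, 3.18 for rbcL, 2.53 for cemA, 2.48 for psbB, 1.72 for atpI, 1.52 for ndhA, 1.24 for rpl2 and 1.22 for clpP, and for psbN and ndhB.1 the adjusted p was 0.0423 and 0.0148.

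Chloroplast rows outside the rule held lone high values. The psbI and psbJ genes, for small photosystem II subunits, were listed at 39.1 and 25.9 TPM in replicate 1 of naive WT after shade and at 0 in all others. The psbL gene was listed at 105 TPM in replicate 1 of naive shaded ref6-1 and at 0 elsewhere. Both copies of rrn4.5S, a fragment of the large ribosomal RNA, were listed at 1694 TPM in replicate 2 of naive shaded WT and at 0 elsewhere. All of these lone values fell in naive shaded libraries.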

How the results depend on the processing

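Counts of called chloroplast genes moved more than 1.5 times in some settings, and no called gene changed sign in any setting run. With the compared groups alone in the fit, the count was 10 in place of 24 for naive WT shade, 0 in place of 10 for naive ref6-1 shade, 0 in place of 1 for primed pif7-1 shade, 2 in place of 0 for primed ref6-1 shade, 0 in place of 2 for primed against naive WT in white light, 19 in place of 29 in shade, and 20 in place of 31 for the difference between these WT responses. It was also 0 in place of 5 for pif7-1 against WT in primed shade, 1 in place of 0 for ref6-1 against WT in primed white light, in primed shade and for their primed responses, and 5 in place of 2 and 5 in place of 11 for the naive and primed pif7-1 responses against WT. Without a filter on low values the count was 3 for pif7-1 against WT in primed shade, 1 for the naive and 7 for the primed pif7-1 response against WT. A pseudocount of 0.1 gave 1 in place of 0 for naive pif7-1 shade, primed ref6-1 shade, pif7-1 and ref6-1 against WT in primed white light, and the primed ref6-1 response against WT. Quantile normalization gave 2 for naive and 2 for primed pif7-1 shade, 1 for primed ref6-1 shade, 7 for priming of WT in white light, 8 for pif7-1 against WT in primed shade and 4 for the naive pif7-1 response against WT. It also shifted the median log2 fold change of all genes by over 0.1 in comparisons such as primed against naive WT in white light, from -0.144 to -0.00105. A nuclear denominator and one without chloroplast rRNA moved no count past 1.5 times.

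Without the 3 libraries of highest chloroplast sum, a setting chosen after seeing the data, the count was 13 for naive WT shade, 2 for primed WT shade, 2 for naive and 0 for primed pif7-1 shade, 19 for naive ref6-1 shade, 1 and 16 for priming of WT in white light and in shade, 16 for the difference between the WT responses, and 0 and 1 for the naive and primed pif7-1 responses against WT. Leaving out each library in turn gave 10 to 40 for naive and 0 to 15 for primed WT shade, 0 to 2 and 0 to 4 for naive and primed pif7-1, and 2 to 12 and 0 to 2 for naive and primed ref6-1. It gave 1 to 7 and 15 to 42 for priming of WT in white light and in shade, and 18 to 42 for the difference between the WT responses. For pif7-1 against WT it gave 0 to 1 in primed white light, 1 to 6 in primed shade, 0 to 7 for the naive and 2 to 21 for the primed response. For ref6-1 against WT it gave 0 to 2 in primed white light, 0 to 0 in primed shade, 0 to 2 for the naive and 0 to 1 for the primed response. Where a group was left with 1 library, that library was assumed to vary like the other groups. Apart from fewer libraries or fewer genes in a fit, the cause was not tested.

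Replicate numbers showed no pairing over all tested genes: deviations of same-numbered libraries correlated between -0.107 and 0.127. The chloroplast genes were not examined apart for this. Whether same-numbered libraries shared a culture or harvest was not tested. With the replicate number as a block the count was 2 in place of 1 for primed pif7-1 shade and 5 in place of 2 for priming of WT in white light, and no other count moved past 1.5 times. Depth is unknown, so the precision of genes near 1 TPM, the bulk of those described, cannot be stated.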
